A study of Homo sapiens with 6 samples.

Results

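The mRNAs of the phosphatidylinositol 3-kinase-related kinases (PIKKs) and of the TTT complex, the chaperone these proteins share, were followed in H929 RNA exposed to the endonuclease IRE1. The members were taken by name from the family and the complex: 6 PIKK genes (ATM, ATR, PRKDC, MTOR, SMG1 and TRRAP) and 3 TTT genes (TELO2, TTI1 and TTI2). They are 9 of the 57905 genes in the count files, and all 9 were among the 14398 genes that passed the filter on low counts and were tested. H929 is a human multiple myeloma cell line, a tumor of plasma cells. In 3 IRE1-treated samples, 5 μg of total RNA met 2 μg of a recombinant form of the human enzyme (residues 467 to 977) during 1 h at 37 °C. In 3 controls the RNA stayed in the same buffer without it, and all reactions were stopped by 5 min at 95 °C. The labels count the RNA preparations as 6 biological replicates of 1 cell line. The comparison asks which mRNAs lose reads when the naked RNA meets the enzyme. Since the RNA was outside the cell and was selected by its poly(A) tail after the reaction, a cut mRNA keeps only the fragment attached to the tail, and a gene count adds the reads from both sides of any cut.

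PIKKs are very large proteins that carry a kinase domain related to that of lipid kinases at the end of a long helical scaffold. ATM, ATR and DNA-PKcs (encoded by PRKDC) signal DNA damage, mTOR couples nutrients to growth, SMG1 starts nonsense-mediated decay by phosphorylating UPF1, and TRRAP is a pseudokinase that recruits histone acetyltransferases. TELO2, TTI1 and TTI2 form the TTT complex, which binds newly made PIKKs and hands them to HSP90 together with the R2TP co-chaperone, so that all PIKKs depend on it for their stability. IRE1 itself is a sensor of the unfolded protein response whose RNase cuts XBP1 mRNA and other mRNAs at a CUGCAG-like sequence held in the loop of a hairpin.

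The CUGCAG sequence was searched on the sense strand of the canonical mRNA of each member, and 15 bases on each side were folded. Every PIKK mRNA held at least 1 CUGCAG in the loop of a predicted hairpin (5 to 11 unpaired bases closed by at least 3 pairs, with the base 3 of the motif in the loop), and 11 of their 66 CUGCAG copies were so placed. The study searched otherwise, by folding mRNA sequences and looking near the region where exon reads fell. Of its candidates ATM, ATR and MTOR, only ATR was among the mRNAs it listed with a clear stem-loop there. The 10 sites of ATM, ATR, MTOR, SMG1 and TRRAP are shown because they are where the motif and the hairpin coincide in mRNAs whose counts changed. The remaining site, in exon 53 of 87 of PRKDC, is not printed here. Each is written 5′ to 3′ as RNA with CUGCAG in capitals and 10 bases on each side, and the coordinates are those of the motif on GRCh37.
ATM, chr11:108121785-108121790, plus strand, exon 10 of 63: cugggucagcCUGCAGaccuucaugu
ATR, chr3:142215323-142215328, minus strand, exon 34 of 47: agaaugcuggCUGCAGagugccaggg
MTOR, chr1:11166827-11166832, minus strand, exon 58 of 58: cacuggccuuCUGCAGcaggguucug
SMG1, chr16:18847428-18847433, minus strand, exon 48 of 63: uggugcucucCUGCAGcagaggcgcu
SMG1, chr16:18844351-18844356, minus strand, exon 51 of 63: uggcguucccCUGCAGacucuagugg
TRRAP, chr7:98529226-98529231, plus strand, exon 26 of 73: caugcauucgCUGCAGguguuggccc
TRRAP, chr7:98548502-98548507, plus strand, exon 39 of 73: agcuaaaguuCUGCAGcauaucuuga
TRRAP, chr7:98551051-98551056, plus strand, exon 40 of 73: gaagaucgucCUGCAGguuuuucaua
TRRAP, chr7:98562277-98562282, plus strand, exon 48 of 73: ucaagucugcCUGCAGcaacaacccc
TRRAP, chr7:98591252-98591257, plus strand, exon 66 of 73: ccauguggcgCUGCAGccgaaucaug

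All of these lie in coding exons except the MTOR site, which is in the 3′ UTR, 241 bases from the end of the mRNA. The ATM site lies 11173 bases from the 3′ end and the ATR site 2357 bases from it. The SMG1 sites lie 7817 and 6998 bases from the 3′ end, and those of TRRAP between 2570 and 8719 bases. A match of this kind is common in mRNAs of this size. Of the 1018 other tested mRNAs at least as long as that of ATR (the shortest PIKK mRNA), 99.0% held a CUGCAG and 62.7% held one in such a loop, against 85.3% and 35.5% of all 12182 tested mRNAs.

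The numbers of CUGCAG copies were not in the order of the fold changes given further on. SMG1 had 18 copies and TRRAP 16, PRKDC had 13, MTOR 8, ATR 6 and ATM 5. Per kilobase, the PIKK mRNAs held between 0.387 (ATM) and 1.26 copies (TRRAP). The median of the long mRNAs was 0.603, and ATM was the PIKK mRNA below it. TELO2, a short mRNA with a GC content of 66.3%, held 10 copies, or 3.02 per kilobase, with none in a hairpin loop. TTI1 held 5 copies, none in a loop, and TTI2 held 2, with 1 in a loop.

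The primer pair the study designed across its ATR cleavage region does not span the ATR site listed above. The forward primer atgctaacaggtccgagtgg and the reverse primer tggtttgatgctatgctcc matched bases 5308 to 5627 of the canonical ATR mRNA, in exons 30 to 33 of 47. These 320 bases held no CUGCAG and 1 CNGCAG. It reads as follows, with that motif in capitals.
ATR, chr3:142218469-142218474, minus strand, exon 31 of 47: aacuauuuggCAGCAGauggaaaauc
This copy was not in a hairpin loop by the rule used here, and the ATR site with CUGCAG in a loop lies 3 exons downstream of it, outside the amplicon. The study placed its own putative ATR sites, described as close to each other, by folding mRNA sequences with another program. Their positions were not compared with the amplicon, so whether it spans them was not tested. By qRT-PCR the study found this amplicon significantly lower with IRE1, and likewise the 5′ regions of all its candidates, ATM, ATR and MTOR included. In H929 cells it reported less ATR mRNA under some inducers of ER stress, but not with an IRE1 inhibitor, and less ATR protein later. The ATM pair (gcagaaacactcccagctt and aggtgtttggtgagaatgtcc) matched bases 6765 to 6914 of 12915 in exon 46, and the MTOR pair (agtcaagaggagtctactcgc and gccaagatgccacctttcct) bases 287 to 387 of 8721 in exon 3. The study describes such pairs as placed in the 5′ region of its candidates, and it lists no loop pair for ATM or MTOR. Neither amplicon held a CUGCAG or a CNGCAG, and neither was designed to span a cleavage site. The other ATR pair of the study has no amplicon here, because its reverse primer was not found in the canonical mRNA. Its forward primer matched from base 3053, over a CUGCAG copy that starts at base 3052 and was not in a hairpin loop.

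The libraries held 19615715 to 25678499 counts on genes. The 9 plasma cell markers had at least 10 counts in every library (243720 to 302699 summed in the controls and 223752 to 258425 in the IRE1-treated samples). Markers of B cells summed to 40 to 64 counts (MS4A1 at 0 to 1), of monocytes to 21 to 49, of epithelial cells to 32 to 50 and of fibroblasts to 5 to 13. Those of erythroid cells summed to 0 to 3, and those of T cells to 891 to 1066, of which CD3E alone gave 890 to 1063, with CD3D at 0 to 1. TMM scaling, which assumes that most genes do not change, gave the controls factors of 1.02 to 1.03. IRE1-treated replicate 1 had the lowest factor (0.947), followed by replicates 2 (0.980) and 3 (0.996).

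All 6 PIKK mRNAs were lower with IRE1 and none of the 3 TTT mRNAs passed the test in either direction (edgeR's quasi-likelihood test over all 14398 genes, Benjamini-Hochberg adjusted p under 0.05). SMG1 fell most, to 63.1% of its control mean, followed by ATM (71.1%), TRRAP (75.1%), ATR (77.8%), PRKDC (81.5%) and MTOR (82.2%). In the background, 12.4% of all tested genes were called lower and 10.3% higher. Among the 1197 tested protein-coding genes with a longest transcript of at least 8158 bases, the length of ATR, 43.5% were called lower, a share well above that of all genes. ATM, ATR and MTOR were among the genes the study itself picked for follow-up from the exon reads of these same libraries, and PRKDC is in its list of depleted exons. Their direction here is therefore not independent evidence.

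Among the DNA damage kinases, ATM, which responds to double-strand breaks, lost most. ATM (ENSG00000149311, chr11:108093771-108239829, plus strand) had 1998, 1987 and 1769 normalized counts in the controls, and with IRE1 it had 1190, 1327 and 1572 (replicates 1, 2 and 3). The groups did not overlap, but the highest IRE1-treated sample lay closer to the lowest control than to its own lowest replicate. The mean went from 1918 ± 129 to 1363 ± 194 (SD, n = 3 each), a log2 fold change of −0.49 ± 0.08 (standard error) with an adjusted p of 0.000728 by edgeR. This was among the lowest 4.51% of the fold changes of all tested genes.

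ATR, which answers single-stranded DNA at stalled forks, moved by less. ATR (ENSG00000175054, chr3:142167849-142297575, minus strand) had 737.6, 720.9 and 665.7 normalized counts in the controls and 508.8, 561.0 and 582.5 with IRE1. The groups were apart, and the mean went from 708.0 ± 37.6 to 550.8 ± 37.9 (SD, n = 3 each). Its log2 fold change was −0.36 ± 0.07, with an adjusted p of 0.00267 by edgeR.

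PRKDC encodes the catalytic subunit of DNA-PK, which drives end joining of broken DNA. PRKDC (ENSG00000253729, chr8:48685672-48872738, minus strand) gave more counts than any other member, with 6988, 6785 and 5994 normalized counts in the controls and 5230, 5289 and 5589 with IRE1. All IRE1-treated samples were below all controls, although control replicate 3 lay nearer to them than to the other controls. Its log2 fold change was −0.30 ± 0.06, with an adjusted p of 0.00208 by edgeR.

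MTOR, the growth kinase of mTORC1 and mTORC2, had the smallest change of the family and the tightest replicates. MTOR (ENSG00000198793, chr1:11166592-11322613, minus strand) had 1611, 1503 and 1481 normalized counts in the controls and 1251, 1248 and 1280 in the IRE1-treated samples. The 3 IRE1-treated values lay within a range narrower than that of the controls and well below it. Its log2 fold change was −0.28 ± 0.05, with an adjusted p of 0.00191 by edgeR.

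SMG1, the kinase of nonsense-mediated decay, had the lowest fold change of the 9 genes. SMG1 (ENSG00000157106, chr16:18816182-18937730, minus strand) had 1043, 1017 and 852.6 normalized counts in the controls and 520.8, 631.7 and 685.2 with IRE1. The groups did not overlap, and the mean went from 971.0 ± 103 to 612.6 ± 83.9 (SD, n = 3 each). Its log2 fold change of −0.66 ± 0.09, with an adjusted p of 0.000270 by edgeR, was among the lowest 1.68% of all tested genes and the lowest 5.51% of the 1197 long ones. SMG1 has near-identical pseudogenes on chromosome 16, so its reads can be split between copies. The 7 that the files list summed to 115 to 170 counts in the controls and 87 to 102 with IRE1, which equals 11.6 to 13.9% and 14.1 to 20.0% of the SMG1 counts. Their part in the result was not tested.

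TRRAP, the scaffold of the SAGA and TIP60 acetyltransferase complexes, followed ATM in size of change. TRRAP (ENSG00000196367, chr7:98475556-98648454, plus strand) had 4605, 4649 and 4133 normalized counts in the controls and 3028, 3548 and 3475 with IRE1. All IRE1-treated samples were below all controls, and the mean went from 4462 ± 286 to 3350 ± 281 (SD, n = 3 each). Its log2 fold change was −0.41 ± 0.06, with an adjusted p of 0.000420 by edgeR. TRRAP shares 735 exonic bases with SMURF1 on the opposite strand, which had 386 to 548 counts and a log2 fold change of 0.07.

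Each PIKK thus had every IRE1-treated sample below every control, as did 20.0% of all tested genes. An exact permutation test of 3 against 3 gives a two-sided p of 0.1 for each of them, the smallest this design allows. The same libraries were low within each group. Control replicate 3 was the lowest control for 6 of the 6 PIKK genes, and IRE1-treated replicate 1 the lowest treated sample for 5 of 6, with MTOR as the exception. The median deviation of the 6 genes from their control means was 0.07, 0.05 and −0.11 (log2) in control replicates 1, 2 and 3, and −0.52, −0.33 and −0.28 with IRE1. The 1197 long genes had the same order, with medians of 0.03, 0.02 and −0.05 in the controls and −0.32, −0.26 and −0.17 with IRE1. Leaving out any 1 library kept all 6 PIKK genes past the threshold.

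**Figure D1:**
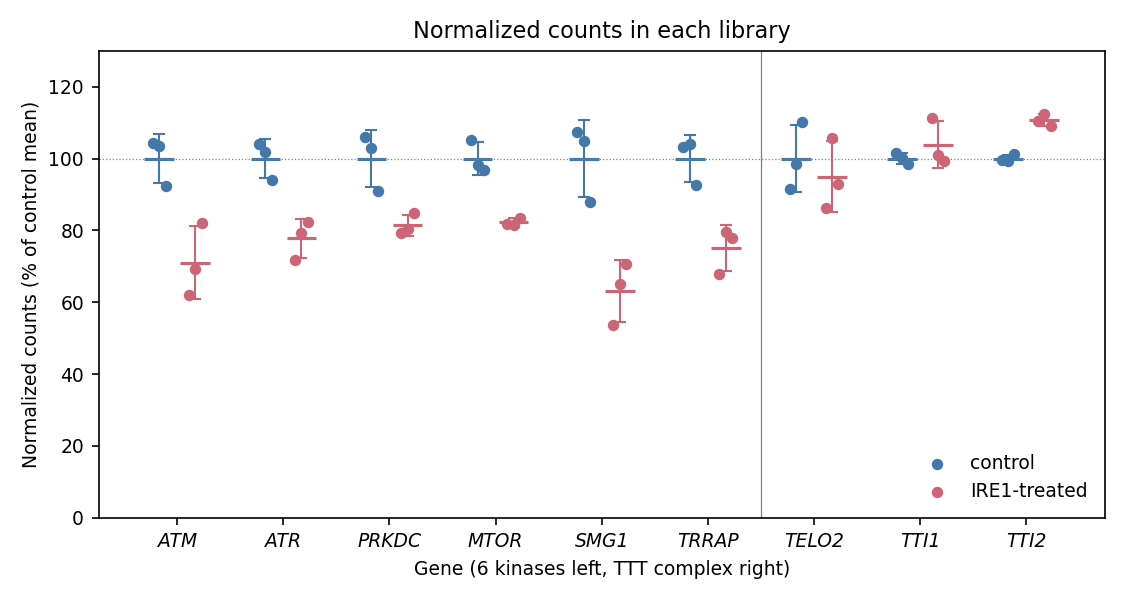
Normalized counts of the 9 genes in each of the 6 libraries, as a percentage of the gene's control mean (points), with the mean and SD of each group (bars, n = 3), controls in blue and IRE1-treated samples in red. For each of the 6 PIKK genes on the left the 3 treated points lie below the 3 control points, TELO2 and TTI1 overlap, and TTI2 has its 3 treated points above its 3 control points.

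The TTT mRNAs did not share this loss. TELO2 (ENSG00000100726, chr16:1543345-1560458, plus strand), the subunit that binds R2TP, had 791.6, 851.8 and 952.3 normalized counts in the controls and 745.9, 914.3 and 804.4 with IRE1. The groups overlapped, and the log2 fold change was −0.07 ± 0.08 with an adjusted p of 0.585 by edgeR. It was 0.0019 without control replicate 3, so that its sign rests on that library. TTI1 (ENSG00000101407, chr20:36611409-36661863, minus strand), a helical-repeat partner of TELO2, had 1161, 1145 and 1125 normalized counts in the controls and 1274, 1154 and 1137 with IRE1. These groups also overlapped, with a log2 fold change of 0.05 ± 0.06 and an adjusted p of 0.568 by edgeR, and the sign turned (−0.02) when library size alone was used for scaling.

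TTI2 (ENSG00000129696, chr8:33330904-33370703, minus strand), the smallest subunit, gave the only non-overlapping TTT values. It had 507.2, 505.3 and 515.7 normalized counts in the controls and 562.7, 572.6 and 555.4 in the IRE1-treated samples. All treated samples were above all controls, as in 19.1% of tested genes, and the mean went from 509.4 ± 5.53 to 563.6 ± 8.67 (SD, n = 3 each). The log2 fold change of 0.15 ± 0.07 did not pass the threshold (adjusted p of 0.134 by edgeR, unadjusted 0.0453). For the 3 TTT genes together, 0 were called higher by edgeR, DESeq2 or limma, with 1 at an unadjusted p under 0.05 by edgeR, and 0 were called lower at either level. TTI2 shares 932 exonic bases with MAK16 on the opposite strand, which had 1418 to 2116 counts and a log2 fold change of 0.04.

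The ratio of PIKK to TTT counts was lower with IRE1, which restates the changes above and is not a separate result. The summed normalized counts of the 6 PIKK genes were 6.90, 6.66 and 5.74 times those of the 3 TTT genes in the controls. With IRE1 they were 4.54, 4.77 and 5.28 times as high. The groups did not overlap, with control replicate 3 and IRE1-treated replicate 3 closest to each other. PRKDC and TRRAP carry most of this sum, so the ratio is not an average over the family.

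PIKK and TTT mRNAs also differ in length, and length moved with the fold change over the whole data set. The longest annotated transcripts of the PIKK genes have 8158 (ATR), 9013 (MTOR), 12677 (TRRAP), 13130 (ATM), 13458 (PRKDC) and 16062 bases (SMG1), and those of the TTT genes have 2516 (TTI2), 3314 (TELO2) and 3958 bases (TTI1). Across 12225 tested protein-coding genes, Spearman's rho between log2 fold change and length was −0.584, a description across genes that share the same 6 libraries. The 1197 genes at least as long as the ATR mRNA had a median log2 fold change of −0.25 (quartiles −0.40 and −0.09), and 1034 of them (86.4%) were below 0. The 6 PIKK genes had a median of −0.39. Among these long genes MTOR stood at the 45.1st percentile from the bottom, PRKDC at the 42.9th, ATR at the 31.2nd, TRRAP at the 24.4th, ATM at the 16.0th and SMG1 at the 5.51st.

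The TTT genes likewise sat among mRNAs of their own size. The 3111 tested protein-coding genes of 2516 to 3958 bases had a median log2 fold change of 0.03, beside 0.05 for the 3 TTT genes (−0.02 with library size alone), and 3.28% of them were called lower and 9.03% higher.

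**Figure D2:**
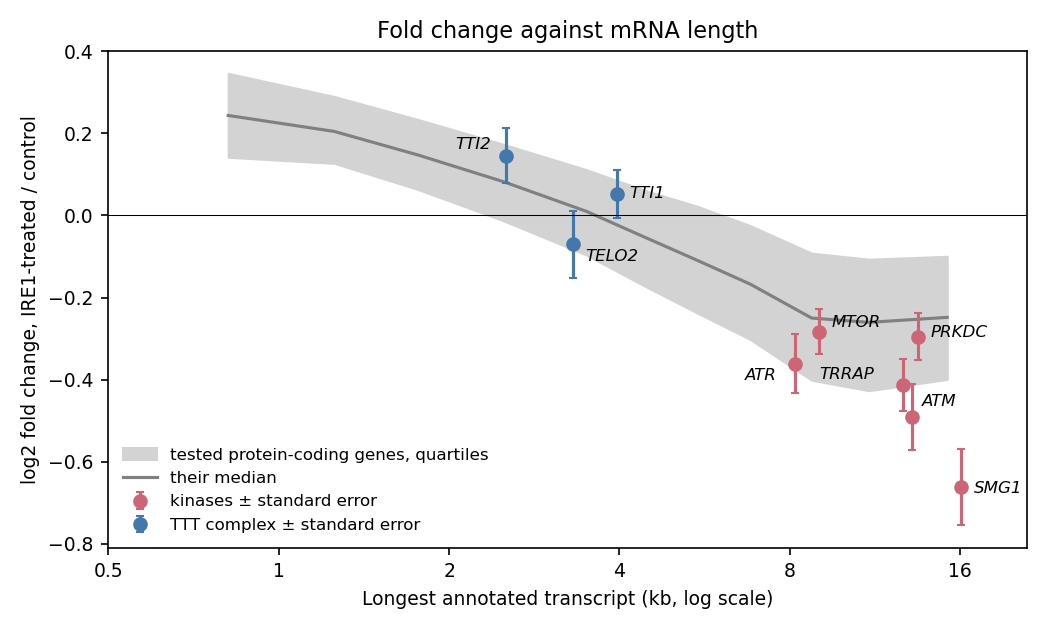
Log2 fold change between IRE1-treated and control samples against the length of the longest annotated transcript (kb, log scale), with the median (line) and quartiles (grey band) of the tested protein-coding genes and the 9 members with their standard errors. MTOR (−0.28) and PRKDC (−0.30) lie near the median for their length, ATM (−0.49) lies below the band, and the 3 TTT genes lie within it. SMG1 (−0.66) lies past the right end of the band and lower than its lower edge there.

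When a trend with transcript length and GC content was removed from each library, 2 of the 6 PIKK genes stayed past the threshold in edgeR. At an unadjusted p under 0.05 by edgeR, 4 of the 6 were lower. Over all 14398 tested genes, 733 were called lower and 1274 higher in this setting. SMG1 kept a log2 fold change of −0.33 (adjusted p of 0.00548) and ATM one of −0.18 (adjusted p of 0.0303). ATR and TRRAP were at −0.13 each, with adjusted p-values of 0.159 and 0.0831, and MTOR was at −0.06 with 0.469. PRKDC was at 0.01 with an adjusted p of 0.895, so that its direction turned. The 3 TTT genes had a median of 0.08 after this removal.

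**Figure D3:**
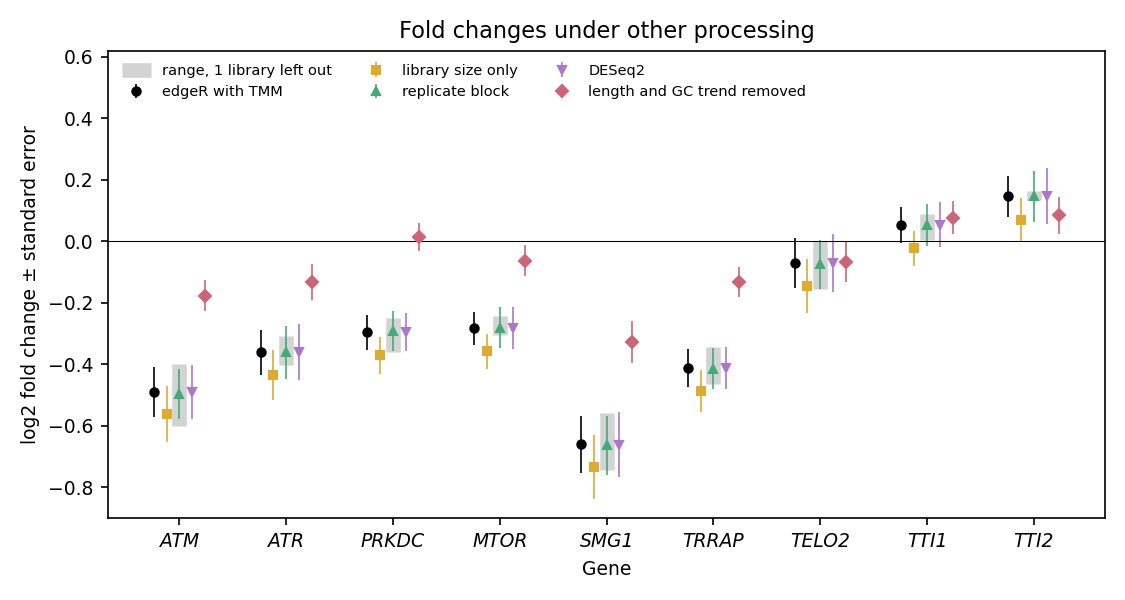
Log2 fold change and standard error of each member under the edgeR fit with TMM (black), scaling by library size alone (yellow), the replicate number as a block (green), DESeq2 (purple) and after removal of the length and GC trend (red), with the range over the fits that leave out 1 library (grey). The PIKK genes stay below 0 and past the threshold under the first 4 settings, with lower values under library size alone, and move toward 0 after removal of the trend, with SMG1 at −0.33 and PRKDC at 0.01.

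Levels between the 9 genes were compared only per length, as CPM with TMM scaling per kilobase of the longest transcript. In the controls PRKDC had the highest level, 22.0 ± 1.76 (SD, n = 3 each), and TRRAP followed at 15.8 ± 1.02. The TTT mRNAs came next, with TTI1 at 13.0 ± 0.207, TELO2 at 11.7 ± 1.10 and TTI2 at 9.11 ± 0.0989, and the remaining kinases were lower, with MTOR at 7.65 ± 0.346, ATM at 6.57 ± 0.443, ATR at 3.90 ± 0.208 and SMG1 at 2.72 ± 0.289. TTI1 and TELO2 were the only neighbours in this order whose control values overlapped. The TTT mRNAs were therefore within the range of their clients. With IRE1, TRRAP (11.9 ± 0.998) fell below TTI1 (13.5 ± 0.849) and overlapped TELO2 (11.2 ± 1.16), and TELO2 overlapped TTI2 (10.1 ± 0.155). With the length of the canonical transcript, the control level of TTI1 was 13.5 and that of TTI2 10.8, which overlaps TELO2. Reads that aligned in several places were not counted on genes. How far this lowers the level of SMG1, which has near-identical pseudogenes, was not tested.

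**Figure D4:**
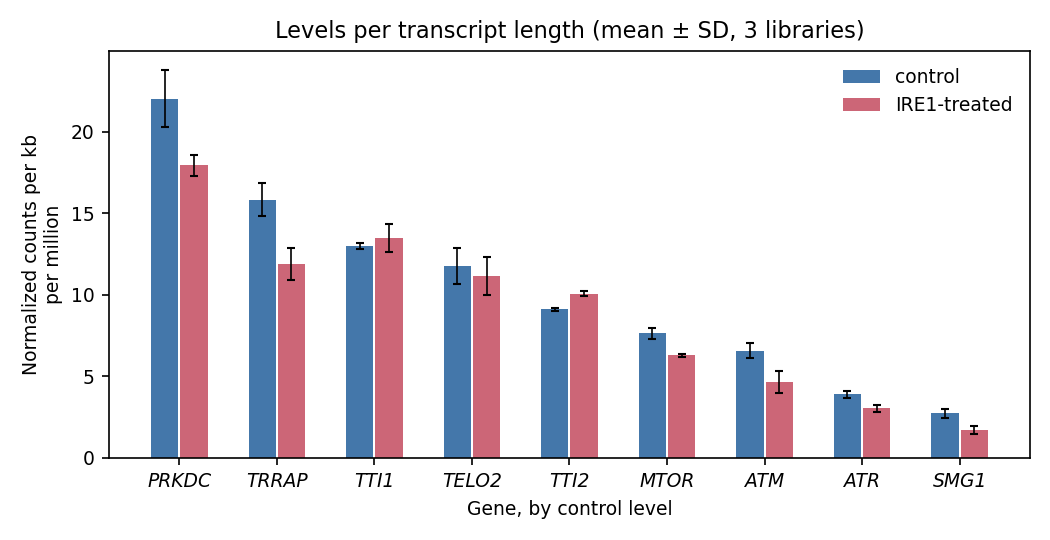
Levels of the 9 genes as TMM-scaled CPM per kilobase of longest transcript (mean and SD of 3 libraries), ordered by the control level. PRKDC (22.0) is the highest and SMG1 (2.72) the lowest in the controls, and the TTT genes lie between TRRAP and MTOR.

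Over the 6 libraries, the member with the nearest profile was another PIKK gene for each PIKK gene and another TTT gene for each TTT gene. The likeness was the root mean square difference of log2 normalized counts centred on the control mean. With that centring the grouping largely restates the fold changes above and is not a separate result. ATR and TRRAP differed by 0.0495 and PRKDC and MTOR by 0.0502, whereas SMG1 and TTI2 were farthest apart at 0.597. The mean PIKK profile was set against 10284 other genes that averaged 100 normalized counts or more. ARHGEF12 (0.0161, log2 fold change −0.42) and IPO7 (0.0183, −0.42) were among the nearest.

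The genes around the PIKKs were read from 8 lists of partners, co-chaperones, effectors and related lipid kinases, 99 genes in all, of which 98 were tested. In these lists 19 genes were lower (19.4%, against 12.4% of all tested genes) and 12 were higher (12.2%, against 10.3%). The 10 genes as long as a PIKK mRNA gave 6 of the lower calls, none of the higher ones and a median log2 fold change of −0.24. The 88 shorter genes gave 13 lower and 12 higher calls and a median of 0.04. The counts depended on single libraries and on scaling. Leaving out control replicate 1 gave 11 lower and 5 higher calls, control replicate 2 gave 12 and 3, and IRE1-treated replicate 2 gave 11 and 7. Leaving out control replicate 3 gave 6 higher calls, and IRE1-treated replicate 3 gave 19. There were 26 lower and 4 higher calls with library size alone, and 7 and 6 after removal of the length and GC trend.

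Among 13 sensors and activators of ATM and ATR, 2 were lower by edgeR and 1 by DESeq2, and 0 were higher after adjustment by edgeR, DESeq2 or limma (2, 0 and 1 higher at an unadjusted p under 0.05), with a median log2 fold change of −0.03 (0.05 after removal of the trend). RAD50, the ATPase of the MRN complex that activates ATM, was at −0.23 (adjusted p of 0.0224 by edgeR) and CLSPN, the adaptor between ATR and its target CHK1, at −0.26 (0.0423, and not called by DESeq2, with an adjusted p of 0.0782). Both lost the call after removal of the trend, at 0.00 and −0.04. The study also names RAD50 among the mRNAs lower with recombinant IRE1 in these same libraries. The direct partners ATRIP, which carries ATR to single-stranded DNA, and NBN, the MRN subunit that binds ATM, had log2 fold changes of 0.10 and −0.10 with adjusted p-values of 0.425 and 0.470 by edgeR.

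Of the 9 partners of DNA-PK and end joining factors, 1 was higher and 0 lower by edgeR, DESeq2 or limma (1 lower at an unadjusted p under 0.05 by each tool), with a median of 0.06 (−0.02 with library size alone). XRCC6 (Ku70) was at 0.17 (adjusted p of 0.0159 by edgeR), and was not called with library size alone (0.09) or after removal of the trend (0.11). XRCC5 (Ku80), which forms the DNA-binding ring with it, was at 0.06 (0.368).

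In the 8 subunits of the mTOR complexes, 1 gene was lower, and 0 were higher after adjustment by edgeR, DESeq2 or limma (3, 2 and 3 higher at an unadjusted p under 0.05). The lower gene was RICTOR, the defining subunit of mTORC2, with 486.1, 411.9 and 352.4 normalized counts in the controls and 202.3, 209.9 and 266.5 with IRE1. No library overlapped, and its log2 fold change of −0.88 ± 0.13 (adjusted p of 0.000297 by edgeR) was lower than that of any PIKK. RICTOR stayed past the threshold after removal of the trend, at −0.62 (adjusted p of 0.00142 by edgeR). The study also picked RICTOR for follow-up from these libraries. RPTOR, which defines mTORC1, was at −0.16 (adjusted p of 0.0548 by edgeR), and MLST8, shared by both complexes, was at 0.10 (0.140).

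The 9 genes of the SMG1 complex and of nonsense-mediated decay had a median log2 fold change of −0.09, and 0 were higher by edgeR, DESeq2 or limma (0 at an unadjusted p under 0.05 by edgeR). The regulatory partners of the kinase, SMG8 and SMG9, were at −0.10 (adjusted p of 0.255 by edgeR) and 0.07 (0.460).

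The 26 subunits of the TRRAP complexes moved in both directions, with 5 lower, 4 higher and a median of 0.00. These are 19.2% and 15.4%, against 12.4% and 10.3% of all tested genes. ATXN7, of the SAGA deubiquitinase module, was at −0.56 (adjusted p of 0.00113 by edgeR) and the acetyltransferase KAT2B at −0.43 (0.00147), and both kept the call after removal of the trend (−0.38 and −0.35). The highest of the called genes were VPS72, a histone H2A.Z chaperone, at 0.23 (0.00621) and the adaptor TADA3 at 0.21 (0.0265), neither of which was called after that removal. With library size alone 8 were lower and 1 higher.

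The list with most higher calls was that of the HSP90 and R2TP co-chaperones, which act with the TTT complex on PIKKs. Of 12 genes, 6 were higher (50.0%, against 10.3% of all tested genes) and 1 lower. The list had a median log2 fold change of 0.13 and a median transcript length of 2274 bases. The 6 became 3 with library size alone (median 0.06) and 1 after removal of the trend (median 0.07). The prefoldin subunit PFDN6 was at 0.44 (adjusted p of 0.000348 by edgeR) and was still called after removal of the trend (0.33). PDRG1, a prefoldin-like subunit, was at 0.29 (0.0484) and was not called by DESeq2 (adjusted p of 0.0609). The paired ATPases of R2TP, which also sit in the TIP60 complex, had opposite calls, with RUVBL1 at −0.15 (0.0313) and RUVBL2 at 0.13 (0.0420). Neither was called after removal of the trend (−0.13 and 0.03).

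Downstream of the kinases, 4 of 10 substrates and effectors were lower (40.0%, against 12.4% of all tested genes) and 1 higher. The median log2 fold change was −0.04. After removal of the trend it was 0.01, with 0 genes called lower and 1 higher. TP53BP1, an ATM substrate at double-strand breaks, was at −0.25 (adjusted p of 0.0208 by edgeR) and the mTORC1 target RPS6KB1 at −0.24 (0.0432, and not called by DESeq2, with an adjusted p of 0.0555), while EIF4EBP1, the short mRNA of another mTORC1 target, was at 0.19 (0.0147). None of the 3 was called after removal of the trend, with values of 0.01, −0.09 and 0.02.

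Of 11 tested lipid kinases of the PI3K and PI4K family, to which the PIKK catalytic domain is related, 5 were lower (45.5%). The share was 12.4% of all tested genes and 43.5% of the 1197 genes of at least 8158 bases. The median transcript length of the list was 6751 bases, and its median log2 fold change −0.13. After adjustment by edgeR, DESeq2 or limma, 0 were higher (1, 0 and 1 higher at an unadjusted p under 0.05). PIK3CG, the catalytic subunit of PI3K-gamma, had the lowest value at −0.66 (adjusted p of 0.000162 by edgeR), the same to 2 decimals as that of SMG1, in a longest transcript of 7059 bases. PIK3C2A, a class II PI3K, was at −0.55 (0.000337). Both stayed past the threshold after removal of the trend, at −0.47 and −0.31. The list as a whole then had a median of −0.02, with 3 genes called lower and 1 called higher. Over all 14398 tested genes, 733 were then lower and 1274 higher.

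**Figure D5:**
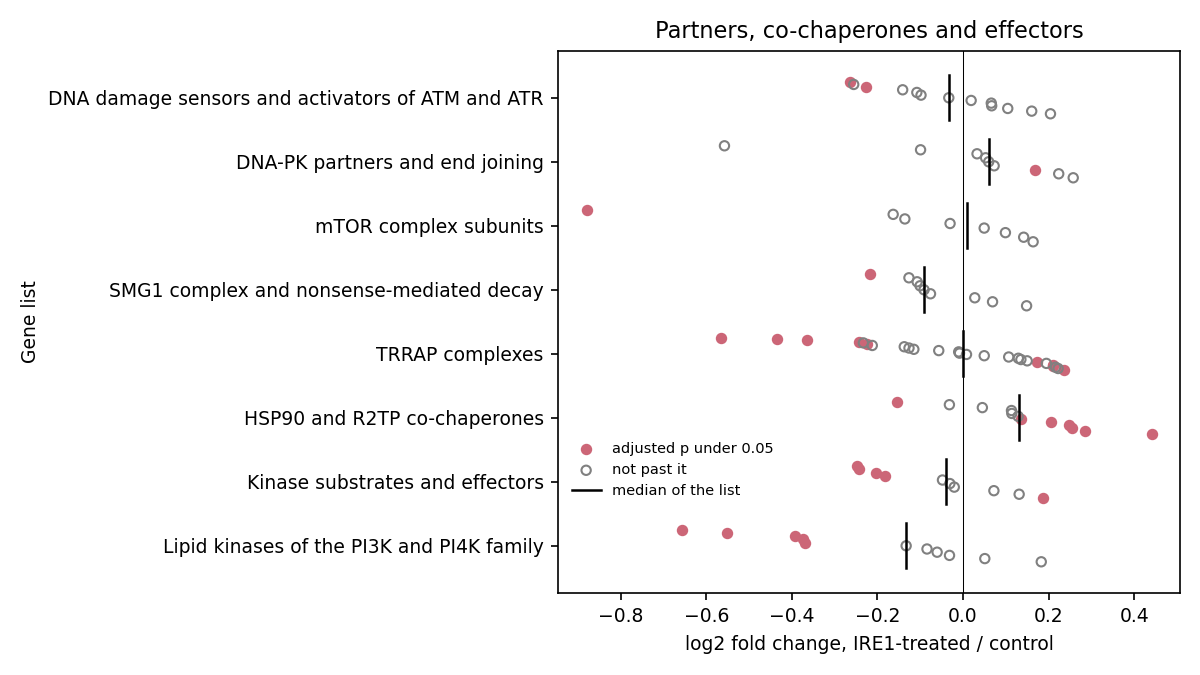
Log2 fold change of each tested gene in the 8 lists (points, filled where the adjusted p was under 0.05) with the median of each list (black bar). RICTOR (−0.88) is the lowest point, PFDN6 (0.44) the highest, and the HSP90 and R2TP list has its median at 0.13.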

How the data were processed

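RNA of 3 IRE1-treated and 3 control samples was sequenced as poly(A)-selected stranded libraries. Per the labels and methods, the authors used cutadapt 1.12 for trimming, STAR 2.5.3a for alignment to GRCh37 (Ensembl 87) and HTSeq 0.6.1p1 for counting pairs per gene. The deposited counts per gene are raw. How HTSeq treated strand and overlaps is not given in the sources used here, so genes that share exons are named. The 5 summary lines (21.4 to 23.2% of all counts) were left out. A table of CPM, normalized by the authors, was used in 1 alternative only.

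Genes that passed edgeR's filter (14398 of 24945 with a count) were scaled with TMM and tested with the quasi-likelihood test of edgeR 4.0.16 (R 4.3.3) over 6 libraries without covariates, with Benjamini-Hochberg adjustment at 0.05. The script was tested on simulated data. A normalized count is the raw count over the TMM-scaled library size, multiplied by the mean library size before TMM scaling. Counting error is part of the fit, at 19615715 to 25678499 counts on genes per library. No library was a copy of another (chi-square per gene of 2.20 or more for each pair).

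Alternatives were DESeq2 1.42.0, library size alone, upper quartile scaling, no filter, at least 10 counts in every library, limma 3.58.1 on log2(CPM + 1), removal of a loess trend (span 0.5) over GC content and transcript length, the replicate number as a block with and without this removal, each library left out in turn, and canonical instead of longest transcripts.

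All 9 members and 10 direct partners were named. Each of the 8 lists also gave its 2 lowest and 2 highest called genes, and 2 genes that the rules would name are not reported here. The members and lists were chosen with earlier results of these data known. GENCODE release 44 on GRCh37 named 55538 of the 57905 identifiers. Sites were folded with ViennaRNA 2.7.2. Python 3.11.15 was used.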

Additional observations from a re-analysis of the deposited data

How the results depend on the processing

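All 6 PIKK genes kept their direction and their call under DESeq2, limma, the other scalings and filters, the replicate block alone and each fit without 1 library. No member was called higher under any alternative. The fits without 1 library gave log2 fold changes of −0.60 to −0.40 for ATM, −0.40 to −0.31 for ATR, −0.36 to −0.25 for PRKDC, −0.31 to −0.24 for MTOR, −0.75 to −0.56 for SMG1 and −0.47 to −0.34 for TRRAP, and −0.15 to 0.0019 for TELO2, which was above 0 only without control replicate 3. With library size alone TTI1 was at −0.023.

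After removal of the length and GC trend, 2 members were called lower (ATM and SMG1), with ATR at −0.13, PRKDC at 0.013, MTOR at −0.063 and TRRAP at −0.13. In the lists 7 genes were then lower and 6 higher. The cause was not tested. Over all tested genes this removal gave 733 lower and 1274 higher calls and library size alone 2596 and 683, against 1781 and 1489.

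Samples with the same replicate number showed no shared deviation (correlations of −0.04, −0.01 and −0.11). With so few libraries this cannot tell whether they came from the same RNA preparation. With the replicate block 14 listed genes were lower and 9 higher, and all 6 PIKK genes kept their call. With the block and the removal of the trend together, 1 member was called lower (SMG1, −0.33), and 7 listed genes were lower and 4 higher. ATM was then at −0.18, ATR at −0.13, PRKDC at 0.015, MTOR at −0.060 and TRRAP at −0.13. Over all tested genes this setting gave 611 lower and 1093 higher calls.

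Without 1 library, 11 to 24 listed genes were lower and 3 to 19 higher, and 4 were higher with library size alone. Canonical transcripts gave control levels of 13.5 for TTI1 and 10.8 for TTI2. Each of the 9 members had at least 425 counts in every library, and the 3 libraries per group set the spread that a change had to exceed.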
